A study of Homo sapiens with 6 samples.

Results

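Intermediate filament genes were examined in KGN cells with and without overexpression of SOX3. The set held 10 genes, found by symbol among the 16626 genes of the table: the keratins KRT7, KRT8, KRT18 and KRT19, vimentin (VIM), nestin (NES), the neurofilament subunits NEFM and NEFL, and the lamins LMNA and LMNB1. The set was picked because NEFM and KRT18 were much lower in OE-SOX3, so the difference between groups is given for all 10 as a description, without a p-value.

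KGN is a human granulosa-like line from an ovarian granulosa cell tumour. The data are 6 RNA-seq libraries in 2 groups of 3: OE-NC, whose genotype is given as wild type, and OE-SOX3, whose genotype is given as SOX3 overexpression. No time, vector or dose is stated for either group, nor whether a group is a clone or a pool. Whether the libraries within a group stem from different cultures is not stated. The p-values set the difference between groups against the scatter of these libraries within groups, and that scatter may be technical. SOX3 is a transcription factor of the SOX family known from the developing nervous system.

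Intermediate filaments are rope-like polymers that give cells mechanical strength. Keratins are obligate partners, in which a type I chain (such as KRT18 or KRT19) pairs with a type II chain (such as KRT8 or KRT7), and they are typical of epithelia. Vimentin is the filament of mesenchymal cells, neurofilaments are those of neurons, nestin is best known from neural progenitors, and lamins form the meshwork under the inner nuclear membrane of nearly all cells. Granulosa cells have an epithelial arrangement in the follicle but are known to carry vimentin as well as keratins.

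Expression is given in FPKM, reads scaled by gene length and by the library's total, so levels can be set side by side between genes. Whole reads recovered from the values gave library totals of 18039929 to 20335307 reads. SOX3 itself had 3, 6 and 1 reads in the OE-NC libraries and 579, 547 and 540 in the OE-SOX3 libraries (0.0808 ± 0.0582 and 14.1 ± 0.374 FPKM, SD, n = 3 per group). OE-NC replicate 1 stood apart from its group: across tested genes it correlated at 0.986 with OE-NC replicates 2 and 3, which correlated at 0.998 with each other. Over the tested genes, the difference of OE-NC replicate 1 from the mean of OE-NC replicates 2 and 3 had a Spearman correlation of -0.508 with gene length. That value is a description, since genes are no replicates. Values without that library are given for the members in which it was the extreme one. Of the granulosa markers, NR5A1 stood at 15.7 and 15.4 FPKM in OE-NC and OE-SOX3, STAR at 33.6 and 118, AMH at 4.65 and 5.38 and FOXL2 at 3.23 and 4.85, whereas FSHR was not analysed here and 6 of the 15 markers in the table were under 1 FPKM in every library.

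Genes averaging 1 FPKM or more in OE-NC or in OE-SOX3 were compared on the log2(FPKM + 1) scale with limma, and called changed at an adjusted p under 0.05. A log2 fold change on that scale understates the change of low genes. Of the 10 genes, 8 passed the filter on low values, NEFM through OE-NC alone. All 8 were past the threshold, 7 lower and 1 higher in OE-SOX3, beside 69.1% of the 11131 genes tested (36.1% lower and 32.9% higher). In all 8 the libraries of the groups did not overlap, beside 76% of tested genes. Their median log2 fold change was -1.37 and that of all tested genes -0.03. Since the members were chosen from this comparison, nothing is read from these counts. In bulk RNA, fewer cells carrying a transcript and less transcript per cell cannot be told apart.

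**Figure D1:**
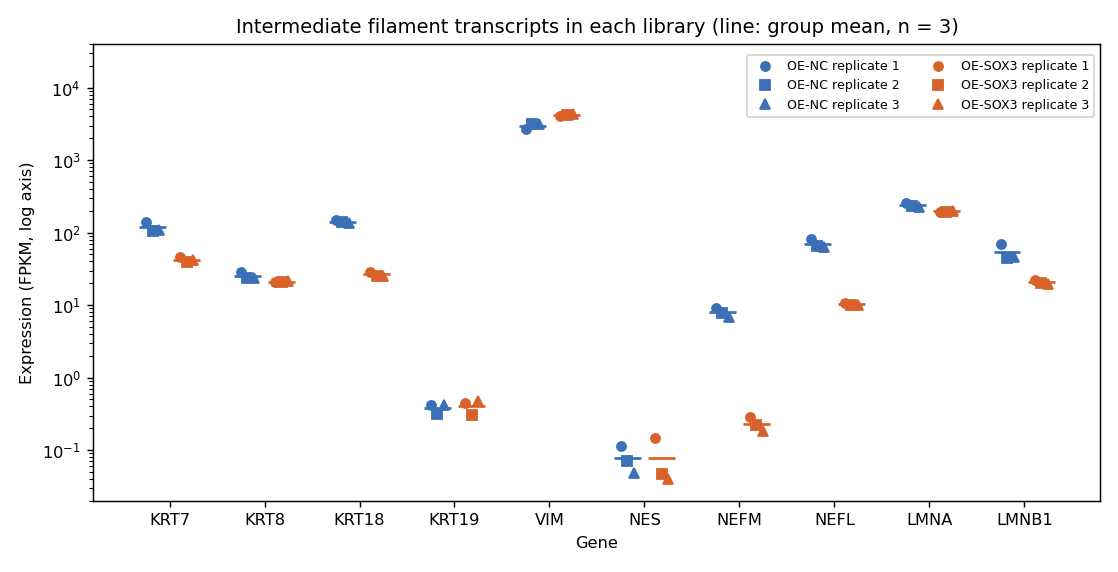
FPKM (log axis) of the 10 intermediate filament genes in each of the 6 libraries, with OE-NC in blue and OE-SOX3 in orange; marker shape gives the replicate number and each line a group mean of 3. VIM lies at 2665 FPKM or more everywhere, KRT18, KRT7, NEFL, NEFM and LMNB1 are separated between the groups, and KRT19 and NES stay under 1 FPKM in all 6 libraries.

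Vimentin dominated the family and was the only one of the 8 tested members that was higher in OE-SOX3. It stood at 2665, 3148 and 3105 FPKM in the OE-NC libraries and at 4092, 4256 and 4309 FPKM in the OE-SOX3 libraries. The groups did not overlap, and OE-NC replicate 1 was the lowest library. The ratio of means was 1.42, and the log2 fold change was 0.51 (SE 0.09, n = 3 per group). Without OE-NC replicate 1 it was 0.43. Under quantile normalization, where it was 0.38, VIM was no longer past the threshold. VIM ranked 3 of 11131 tested genes by mean level, and its reads were 0.641% of an OE-NC library and 0.91% of an OE-SOX3 library. VIM is on the plus strand of chromosome 10 at 17228259 to 17237593 (GRCh38). Of its exon bases, 52.6% lie in exons of other annotated genes, among them VIM-AS1. With no strand setting known, reads of these genes cannot be told apart.

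Markers of fibroblasts and stromal cells were mostly higher in OE-SOX3. All 12 markers on the list were tested, of which 9 were higher, 1 was lower and 2 did not pass, beside 32.9% higher and 36.1% lower among all tested genes. Their summed level was 1207 to 1273 FPKM in OE-NC and 3880 to 4114 FPKM in OE-SOX3. The type I collagen genes COL1A2 (567 to 1630 FPKM) and COL1A1 (320 to 1835 FPKM) and the actin gene ACTA2 (60.8 to 133 FPKM) were higher, while THY1, which encodes a cell-surface glycoprotein, was lower (112 to 85.8 FPKM), a call lost under quantile normalization (limma adjusted p = 0.184). None of these markers was at 0, and their part in the difference of VIM was not tested.

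Nestin, which copolymerises with vimentin, was close to the detection limit. It had 12, 8 and 5 reads in the OE-NC libraries and 16, 5 and 4 in the OE-SOX3 libraries, or 0.0398 to 0.148 FPKM over all 6. The groups overlapped, and the ratio of reads per unit depth, OE-SOX3 over OE-NC, was 1.03 (95% interval 0.568 to 1.87, exact binomial, counting error only). That interval holds the ratios that these reads allow under counting error, and it leaves out scatter between libraries. Nestin did not enter the test.

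Among the simple-epithelial keratins, KRT18 was the member with the largest difference. Keratin 18 is the type I chain that pairs with keratin 8 in simple epithelia. Its level was 149, 142 and 136 FPKM in the OE-NC libraries and 28.7, 25.5 and 25.4 FPKM in the OE-SOX3 libraries. Every OE-SOX3 library lay far below every OE-NC library. The mean was 5.37 times higher in OE-NC, and the log2 fold change was -2.38 (SE 0.07, n = 3 per group). By this value KRT18 ranked 29 of 11131 tested genes, counted from the largest fall. Leaving out any library in turn kept the log2 fold change between -2.44 and -2.35.

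KRT8, the type II partner of KRT18, differed far less. It stood at 28.3, 23.3 and 23.3 FPKM in OE-NC and at 20.7, 20.8 and 21.2 FPKM in OE-SOX3. The groups did not overlap, and OE-NC replicate 1 was the highest library, without which the OE-NC mean was 23.3 rather than 25 FPKM. The log2 fold change was -0.24 (SE 0.09, n = 3 per group), and -0.15 without that library. KRT8 was not past the threshold with every library scaled to the same sum of FPKM (-0.10), under quantile normalization (-0.06), with the trend with gene length removed (-0.03), or without any one of the OE-SOX3 replicates (-0.25 to -0.23).

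The ratio of KRT18 to KRT8 transcript therefore differed between groups. In FPKM it was 5.27, 6.08 and 5.85 in the OE-NC libraries and 1.38, 1.22 and 1.20 in the OE-SOX3 libraries (5.73 ± 0.418 and 1.27 ± 0.1, SD, n = 3 per group). The 2 genes are neighbours on chromosome 12 in opposite orientation. KRT8 is on the minus strand (52897187 to 52949954, GRCh38) and KRT18 on the plus strand (52948871 to 52952901). Their annotated spans overlap by 1084 bases and they share 135 exon bases, 6.72% of those of KRT18 and 2.95% of those of KRT8. Both genes have many processed pseudogenes, so how reads were assigned among near-identical copies bears on both levels.

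KRT7, a type II keratin of simple and glandular epithelia, followed KRT18 in direction. It stood at 140.3, 107 and 107 FPKM in OE-NC and at 45.6, 39.5 and 41.6 FPKM in OE-SOX3. The groups were well apart, with OE-NC replicate 1 the highest library. The mean was 2.8 times higher in OE-NC (log2 fold change -1.45, SE 0.12, n = 3 per group). Without OE-NC replicate 1 the log2 fold change was -1.32. KRT7 is on the plus strand of chromosome 12 at 52232520 to 52252186, and 12.6% of its exon bases overlap those of KRT7-AS. KRT19, the smallest keratin and an alternative type I partner of KRT8, was nearly silent. It had 11, 9 and 11 reads in OE-NC and 12, 8 and 12 in OE-SOX3, or 0.301 to 0.479 FPKM. The ratio of reads per unit depth, OE-SOX3 over OE-NC, was 1.06 (95% interval 0.628 to 1.80, exact binomial, counting error only), and it did not enter the test.

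Markers of epithelial cells were low in both groups. Of the 14 in the table, 12 were under 1 FPKM in every library, and the transcription factor gene GRHL2 was at 0 in all 6. EPCAM, which encodes an epithelial adhesion molecule, was at 0.0891 ± 0.104 and 0.068 ± 0.0327 FPKM (SD, n = 3 per group). The summed level of the list was 2.56 to 2.98 FPKM in OE-NC and 4.31 to 4.82 FPKM in OE-SOX3. The 2 tested members were higher, MUC1 (1.29 to 2.15 FPKM, limma adjusted p = 0.00106) and CLDN7 (0.247 to 1.25 FPKM), beside 32.9% of all tested genes. CLDN7 entered the test through OE-SOX3 alone, so its values are a description. ELF3 and CLDN4 were under 1 FPKM. The part of these markers in the keratin differences was not tested.

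The other keratins changed in both directions. The table held 35 keratin genes, of which 21 were under 1 FPKM in every library and 14 were tested. Of the whole list of other intermediate filament genes (keratins, desmin, peripherin, synemin and the like), 42 were in the table and 16 were tested: 8 rose, 7 fell and 1 did not pass. That is 15 of 16 past the threshold beside 69.1% of all tested genes, with a median log2 fold change of 0.18 beside -0.03. KRT17 and BFSP1 passed the filter through OE-SOX3 alone and KRT34 through OE-NC alone, and are in these counts. With no filter on low values, 14 of 40 rose and 8 fell, beside 4636 and 4297 of all 16278 genes in that fit. There 22 of 40 were past the threshold, beside 8933 of 16278.

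KRT81, a type II keratin of the hair shaft, was the most abundant keratin in the cells. It stood at 961, 798 and 849 FPKM in OE-NC and at 438, 415 and 418 FPKM in OE-SOX3. Every OE-SOX3 library lay below every OE-NC library, and KRT81 made up 69.1% ± 0.787 of all keratin FPKM in OE-NC and 72.7% ± 0.0912 in OE-SOX3 (SD, n = 3 per group). On the log2 scale KRT81 fell by 1.03 (SE 0.09, limma adjusted p = 4.59e-05). Its hair-keratin relatives KRT83 and KRT86 are near-identical in sequence, so the split of reads among them is uncertain. KRT86 was lower as well (2.04 to 1.48 FPKM, limma adjusted p = 0.0126), a call lost with every library scaled to the same sum (adjusted p = 0.0533).

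Other keratins that were lower include KRT34, a type I hair keratin. It went from 8.29 ± 0.315 to 0.886 ± 0.182 FPKM (SD, n = 3 per group), with a log2 fold change of -2.30 (SE 0.08). KRT34 passed the filter through OE-NC alone, so its values are a description. KRT80, a type II keratin, fell from 47.8 ± 1.86 to 12.9 ± 0.372 FPKM (log2 fold change -1.81, SE 0.06, limma adjusted p = 1.62e-06). KRT16, an inducible keratin of stratified epithelia, fell from 3.01 to 1.25 FPKM, and the suprabasal epidermal keratin KRT10 from 7.78 to 5.07 FPKM.

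The keratins that were higher in OE-SOX3 were KRT5, KRT6A, KRT14, KRT15 and KRT17. KRT17, a type I keratin induced in stressed epidermis, had 5, 3 and 6 reads in the OE-NC libraries and 62, 55 and 57 in the OE-SOX3 libraries. The mean went from 0.16 to 2.03 FPKM, and the ratio of reads per unit depth was 12.8 (95% interval 7.43 to 23.9, exact binomial, counting error only). KRT17 passed the filter through OE-SOX3 alone, so these values are a description. KRT5, the basal type II keratin, rose from 2.65 ± 0.385 to 4.98 ± 0.434 FPKM (3 libraries per group, SD), KRT6A from 1.42 to 2.81 FPKM and KRT15 from 1.31 to 1.98 FPKM, the last not past the threshold under quantile normalization (limma adjusted p = 0.0621). KRT14, the basal type I partner of KRT5, was at 27.2 ± 4.29 and 35 ± 1.3 FPKM (log2 fold change 0.36, limma adjusted p = 0.0204), a call lost in 4 of the 6 fits that leave out a library (adjusted p 0.0614 to 0.0718). KRT6A, KRT14, KRT16 and KRT17 belong to groups of close paralogs, so their values are less certain than those of single-copy genes.

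**Figure D2:**
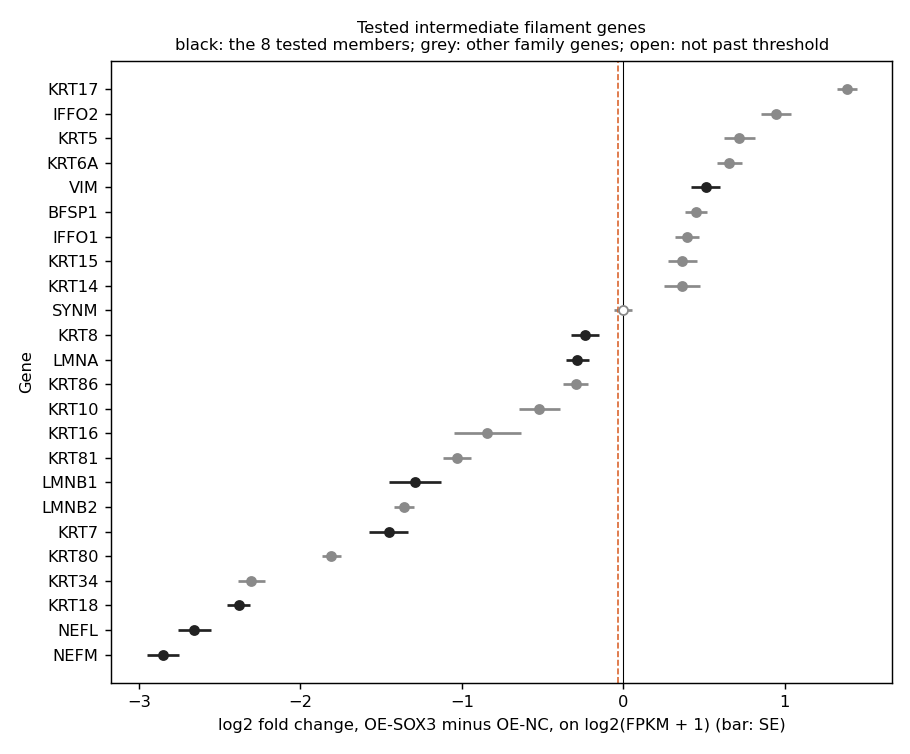
Log2 fold change, OE-SOX3 minus OE-NC on the log2(FPKM + 1) scale, of the 24 tested intermediate filament genes with its SE; black points are the 8 tested members, grey points the 16 other genes of the family, and the open point (SYNM) did not pass the threshold. The dashed line is the median of all tested genes, -0.03, and the values run from -2.85 for NEFM to 1.39 for KRT17.

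Summed over all 35 keratin genes, keratin transcript was lower in every OE-SOX3 library than in any OE-NC library. The sum was 1386, 1169 and 1216 FPKM in OE-NC and 604, 570.1 and 575 FPKM in OE-SOX3. The type I sum was 191 ± 12.3 FPKM in OE-NC and 73.4 ± 2.97 in OE-SOX3, and the type II sum was 1066 ± 103 and 510 ± 15.7 FPKM (SD, n = 3 per group). Most of the type I difference lay in KRT18, picked for its fall (142 to 26.5 FPKM). Most of the type II difference lay in KRT81 (869 to 424 FPKM). Of the other tested type I keratins, KRT10, KRT16 and KRT34 were lower and KRT14, KRT15 and KRT17 higher. Type II transcript exceeded type I in every library, by 5.27 to 5.77 times in OE-NC and 6.87 to 7.09 times in OE-SOX3.

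Both neurofilament members were far lower in OE-SOX3. NEFM, the medium neurofilament subunit, stood at 9.13, 7.85 and 6.84 FPKM in OE-NC and at 0.288, 0.219 and 0.186 FPKM in OE-SOX3. The OE-NC libraries held 622, 572 and 462 reads and the OE-SOX3 libraries 20, 15 and 12. The reads per unit depth were 34.2 times higher in OE-NC (95% interval 25.6 to 46.8, exact binomial, counting error only), while the log2 fold change on the log2(FPKM + 1) scale was -2.85 (SE 0.10, n = 3 per group) and -2.76 without OE-NC replicate 1. A pseudocount of 0.1 gave -4.60, and the fit to recovered reads gave -5.07. The exons of NEFM share 38.9% of their bases with an annotated gene, AF106564.1, and strand is not known.

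NEFL, the light subunit that can form the core of the filament, was higher than NEFM in both groups and also lower in OE-SOX3. It stood at 82.1, 64.7 and 64.2 FPKM in OE-NC and at 10.6, 9.95 and 10.2 FPKM in OE-SOX3. The groups were far apart, and OE-NC replicate 1 was the highest. The mean was 6.87 times higher in OE-NC, and the log2 fold change was -2.66 (SE 0.10, n = 3 per group), or -2.54 without that library. NEFM and NEFL ranked 9 and 12 of 11131 tested genes from the largest fall. They are neighbours on chromosome 8 in opposite orientation, NEFM at 24913012 to 24919098 on the plus strand and NEFL at 24950955 to 24957110 on the minus strand (GRCh38), with 31856 bases between them. The ratio of NEFL to NEFM rose from 8.88 ± 0.59 in OE-NC to 45.7 ± 9.01 in OE-SOX3 (SD, n = 3 per group), so NEFM was lower by the larger factor. The heavy subunit NEFH, alpha-internexin (INA) and peripherin (PRPH), the other neuronal filament genes, were near 0: NEFH had at most 0.227 FPKM, PRPH 0.0862 and INA 0.0512 in any library. For each of them every OE-SOX3 library lay above every OE-NC library, at few reads. The same held for 4064 of the 11131 tested genes, so it is a description. NEFH had 8, 7 and 0 reads in OE-NC and 15, 14 and 10 in OE-SOX3. PRPH had 0 reads in OE-NC and 1, 3 and 2 in OE-SOX3, and INA 0 and 1, 2 and 3. None of them entered the test.

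Markers of neurons went in both directions. Of the 16 in the table, 8 were tested: 3 rose, 2 fell and 3 stayed short of the threshold, so 5 of 8 changed beside 69.1% of all tested genes. Their median log2 fold change was 0.04. Their summed level was 648 to 788 FPKM in OE-NC and 652 to 687 FPKM in OE-SOX3, and ISL1 was at 0 in all libraries. The most abundant were UCHL1 (438 and 447 FPKM), the adhesion gene L1CAM (158 and 102 FPKM), the tubulin gene TUBB3 (57.8 and 52.5 FPKM) and the enolase gene ENO2 (24.6 and 25 FPKM), of which L1CAM fell. UCHL1 rose (limma adjusted p = 0.000323) and TUBB3 fell (limma adjusted p = 0.00128) when OE-NC replicate 1 was left out, and UCHL1 rose also with the trend with gene length removed (limma adjusted p = 0.00451). ENO2 rose under quantile normalization (limma adjusted p = 0.0466). STMN2, a neuronal microtubule regulator picked after its values were seen, rose from 1.23 to 17.4 FPKM. The markers' part in the neurofilament difference was not tested.

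Lamins differed by type. LMNA, which encodes lamins A and C, stood at 257, 235 and 227 FPKM in OE-NC and at 195, 193 and 201 FPKM in OE-SOX3. The groups did not overlap, and the log2 fold change was -0.28 (SE 0.07, n = 3 per group), or -0.23 without OE-NC replicate 1. LMNB1, which encodes lamin B1, a lamin that stays farnesylated and membrane-bound, stood at 68.9, 45 and 46.1 FPKM in OE-NC and at 22.2, 20.5 and 19.6 FPKM in OE-SOX3. OE-NC replicate 1 lay well above the other OE-NC libraries, yet all 3 lay above every OE-SOX3 library. The log2 fold change was -1.29 (SE 0.16, n = 3 per group) and -1.10 without that library.

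LMNB2, the other B-type lamin, was not among the members and fell by a like amount. It went from 82.9 ± 3.68 to 31.7 ± 0.839 FPKM (SD, n = 3 per group), with a log2 fold change of -1.36 (SE 0.06, limma adjusted p = 4.01e-06). The ratio of LMNA to LMNB1 and LMNB2 together was 1.74, 1.79 and 1.76 in the OE-NC libraries and 3.56, 3.75 and 3.93 in the OE-SOX3 libraries. The sum of all 3 lamin genes was 376 ± 26.2 FPKM in OE-NC and 249 ± 4.03 FPKM in OE-SOX3.

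**Figure D3:**
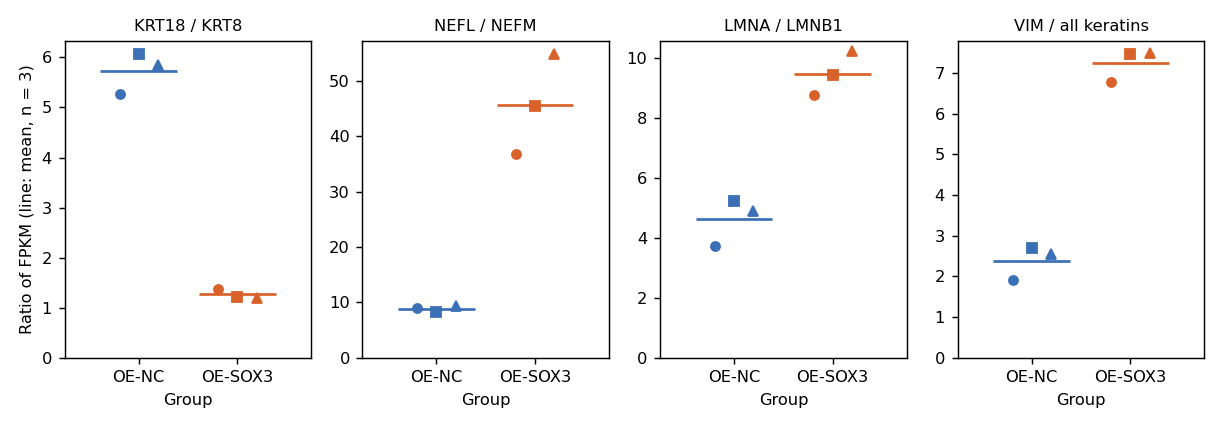
Ratio of FPKM within each library (points, 3 per group, marker shape by replicate number; lines are group means) for KRT18 to KRT8, NEFL to NEFM, LMNA to LMNB1 and VIM to all keratins, each axis starting at 0. The group means are 5.73 and 1.27, 8.88 and 45.7, 4.63 and 9.48, and 2.39 and 7.24 for OE-NC and OE-SOX3, and the groups do not overlap in any panel.

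Upstream sequences are shown for the B-type lamins, which were lower together, and for VIM, which was higher. They come from RefSeq (GRCh38.p14) and run 5′ to 3′ over 210 bases, from 250 to 41 bases before the annotated start. Of the 10 members, 5 had such a window in the table, and the RefSeq start of LMNB1 lies inside its GENCODE span (126776623 to 126837020). The LMNB1 window is chr5:126776886-126777095 on the plus strand, that of LMNB2 chr19:2457000-2457209 on the minus strand and that of VIM chr10:17227991-17228200 on the plus strand. LMNB1 had further windows that are not shown, so its motifs and composition hold for the chosen window only. Capitals mark every match, on either strand, to the motifs searched, which are listed after the sequences.
LMNB1: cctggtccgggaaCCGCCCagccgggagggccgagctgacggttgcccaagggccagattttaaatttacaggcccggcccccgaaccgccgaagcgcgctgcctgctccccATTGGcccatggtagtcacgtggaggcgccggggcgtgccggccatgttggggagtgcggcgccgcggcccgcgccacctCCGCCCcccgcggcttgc
LMNB2: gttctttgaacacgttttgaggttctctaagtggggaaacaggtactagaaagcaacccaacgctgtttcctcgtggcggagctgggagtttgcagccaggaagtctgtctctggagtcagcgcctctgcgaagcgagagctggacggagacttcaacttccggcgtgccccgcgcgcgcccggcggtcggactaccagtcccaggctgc
VIM: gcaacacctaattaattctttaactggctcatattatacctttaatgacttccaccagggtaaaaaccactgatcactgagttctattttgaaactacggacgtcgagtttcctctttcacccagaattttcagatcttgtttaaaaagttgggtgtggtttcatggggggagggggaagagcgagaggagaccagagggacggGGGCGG

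The motifs were the SOX cores ACAAT and ACAAAG, the E2F motif TTTNNCGC, the CCAAT box, the GC box GGGCGG and the AP-1 motif TGANTCA. LMNB1 held 2 GC boxes, beginning 237 and 58 bases before the start, and 1 CCAAT box at 138 bases, none overlapping. VIM held 1 GC box at 46 bases, and LMNB2 held none of the motifs. Among 35116 windows of the same length, a GC box was found in 37.2%, a CCAAT box in 28.8%, ACAAT in 22%, ACAAAG in 11.8%, the AP-1 motif in 5.64% and the E2F motif in 5.06%. The windows differed in composition. LMNB1 had 73.3% G and C and 25 CpG dinucleotides, LMNB2 60% and 17, and VIM 45.2% and 6, where the median of all windows was 57.6% and 8.

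Within the family, vimentin took a larger share in OE-SOX3, and keratins, lamins and neurofilaments took smaller ones. Of the summed FPKM of all 52 intermediate filament genes in the table, VIM made up 63.2% ± 4.16 in OE-NC and 83.1% ± 0.709 in OE-SOX3, and keratins 26.8% ± 3.14 and 11.5% ± 0.568 (SD, n = 3 per group). The lamins went from 7.47% to 8.89% of the sum in OE-NC libraries to 4.79% to 5.03% in OE-SOX3 libraries, and NEFL and NEFM together from 1.49% to 2.00% to 0.2% to 0.219%. The remaining 11 genes held 0.256% to 0.264% in OE-NC and 0.33% to 0.368% in OE-SOX3.

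**Figure D4:**
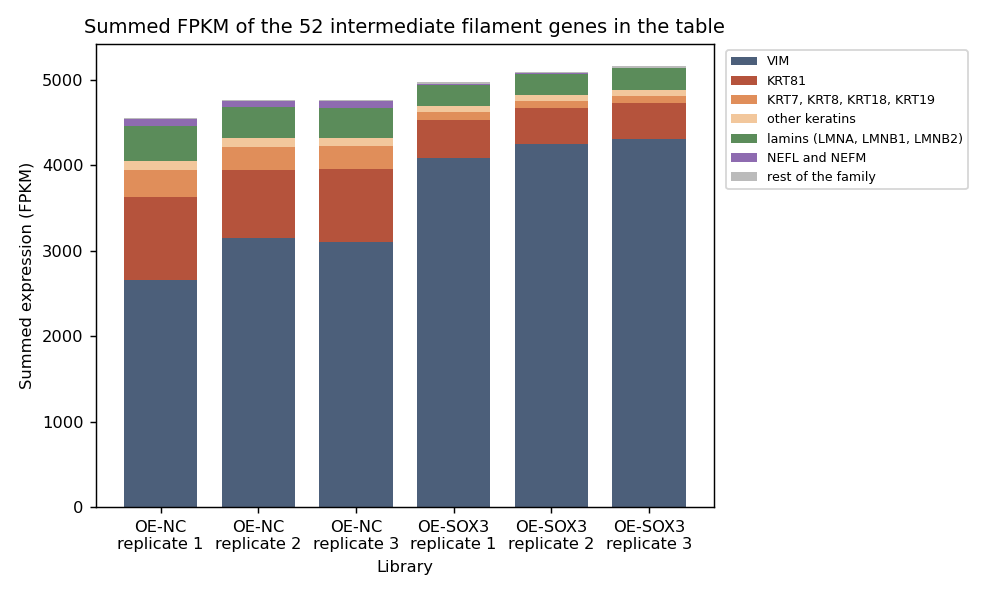
Summed FPKM of the 52 intermediate filament genes in each library, stacked by class; each bar is 1 library and starts at 0. The VIM segment grows from 2665 to 3148 FPKM in the OE-NC bars to 4092 to 4309 FPKM in the OE-SOX3 bars, while the KRT81 segment falls from 798 to 961 FPKM to 415 to 438 FPKM.

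The remaining family genes were expressed at low levels. The lens filament gene BFSP1 was at 0.868 and 1.55 FPKM, and IFFO1 and IFFO2, which encode intermediate filament family orphans, rose from 5.75 to 7.86 and from 1.35 to 3.50 FPKM. Synemin (SYNM), a partner of vimentin and desmin, stood at 4.13 ± 0.0859 and 4.12 ± 0.0865 FPKM (SD, n = 3 per group) and did not pass (limma adjusted p = 0.998).

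Genes that anchor filaments went in both directions. Of 23 cytolinker, desmosomal and keratin-binding genes, 16 were tested: 7 rose, 4 fell and 5 did not pass, so 11 of 16 changed beside 69.1% of all tested genes. Over the 16 tested genes the median log2 fold change was 0.28. DSP, which encodes desmoplakin, the linker of keratins to desmosomes, rose from 4.78 ± 0.162 to 25.8 ± 0.694 FPKM (log2 fold change 2.21, SE 0.06, limma adjusted p = 9.1e-07). JUP (plakoglobin) rose from 5.37 to 11.4 FPKM (limma adjusted p = 1.67e-05) and the desmosomal cadherin gene DSG2 from 17.6 ± 5.4 to 32 ± 1.59 FPKM (limma adjusted p = 0.00842; SD, n = 3 per group). DSG2 stood at 11.4 FPKM in OE-NC replicate 1 and at 21.1 and 20.3 in the other OE-NC libraries, and its log2 fold change was 0.87 with and 0.60 without replicate 1. PPL (periplakin), a plakin that binds keratins and vimentin, fell from 5.77 ± 0.0284 to 1.1 ± 0.115 FPKM (log2 fold change -1.69, SE 0.06, limma adjusted p = 2.17e-06). Plectin (PLEC), the general cytolinker, also picked after its values were seen, stood at 45.9 and 43.4 FPKM and did not pass. With the replicate number as a block, 14 of the 16 changed, 10 of them higher, beside 8031 of all 11131 tested genes, 3833 of them higher. The same 14 and 10 were found without OE-NC replicate 1, beside 9076 of 11132 tested genes, 4274 of them higher.

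Genes for proteins that bind or process lamins went in both directions. Of 28, 25 were tested: 14 fell, 7 rose and 4 stayed short of the threshold. The median log2 fold change over these 25 was -0.36. Beside these counts, 36.1% of all tested genes were lower and 32.9% higher. ICMT, the methyltransferase that finishes the processing of farnesylated proteins such as B-type lamins, fell from 69.4 ± 9.23 to 25 ± 0.945 FPKM (log2 fold change -1.43, SE 0.10, limma adjusted p = 2.54e-05). TMPO, which encodes the lamina-associated polypeptides LAP2, fell from 36.7 ± 2.64 to 13.4 ± 0.682 FPKM (log2 fold change -1.39, SE 0.08, limma adjusted p = 7.44e-06; SD, n = 3 per group). LBR, the lamin B receptor, fell from 26.9 to 14 FPKM (limma adjusted p = 1.26e-05), and CBX5, the heterochromatin protein that LBR binds, from 35.1 to 18 FPKM (limma adjusted p = 3.26e-05). SUN2, which links the lamina to the cytoskeleton and was picked after its values were seen, rose from 21.7 to 34.7 FPKM. Without OE-SOX3 replicate 1, 4 of the 25 lamina genes rose and 12 fell, beside 3155 and 3526 of 11134 tested genes.

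**Figure D5:**
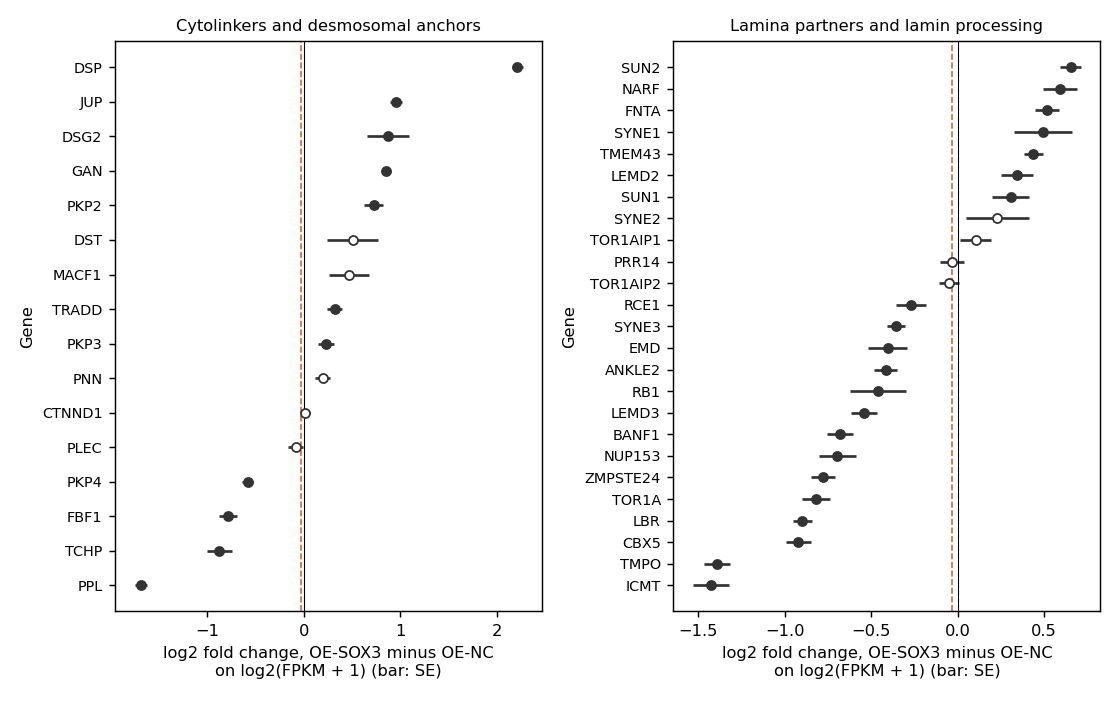
Log2 fold change, OE-SOX3 minus OE-NC on the log2(FPKM + 1) scale, with its SE, of the 16 tested anchoring genes (left) and the 25 tested lamina genes (right); open points did not pass the threshold and the dashed line is the median of all tested genes, -0.03. DSP at 2.21 and PPL at -1.69 are the ends of the left panel, and SUN2 at 0.65 and ICMT at -1.43 those of the right.

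The genes with profiles closest to KRT18 and NEFM over the 6 libraries were found by Euclidean distance between centred log2(FPKM + 1) values. For KRT18 they were E2F1 (distance 0.0999), MCM6 (0.155) and CCNE2 (0.182), where the median distance of tested genes was 2.90. E2F1 went from 28.3 to 4.73 FPKM, MCM6 from 57.5 to 10.6 and CCNE2 from 7.99 to 0.734. For NEFM they were ANKRD1 (0.158), TCF19 (0.175) and FEN1 (0.232), where the median was 3.48. ANKRD1 went from 91.3 to 11.7 FPKM, TCF19 from 76 to 9.07 and FEN1 from 129.6 to 15.9. The log2 fold changes of these 6 genes lay between -2.93 and -2.34, beside -2.38 for KRT18 and -2.85 for NEFM. The likeness holds on the log2(FPKM + 1) scale, where the low OE-SOX3 level of NEFM is compressed. In the fit to recovered reads the log2 fold change was -5.07 for NEFM but -2.95 for ANKRD1, -3.06 for TCF19 and -3.01 for FEN1, so those genes did not differ by as much as NEFM. It was -2.42 for KRT18, -2.58 for E2F1, -2.44 for MCM6 and -3.43 for CCNE2. The choice of genes rests on the values for which KRT18 and NEFM were picked, so the likeness is a description.

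Markers of blood and endothelial cells were low. Of 9 in the table, 7 were under 1 FPKM everywhere and the haemoglobin gene HBB was at 0 in all libraries. CSF1R (4.68 and 1.42 FPKM) and PECAM1 (3.54 and 2.48 FPKM) were the highest, and CD14 and VWF were under 1 FPKM. The sum of the list was 7.51 to 9.33 FPKM in OE-NC and 4.33 to 4.66 FPKM in OE-SOX3.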

How the data were processed

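RNA of 6 KGN libraries was measured by RNA-seq, 3 per group. The authors deposited 1 table of FPKM values, a unit its header does not name and that was read from the values. HISAT2, HTSeq, RSEM and hg38 are named without roles, per the submitters' processing notes; no source used here gives the annotation, read layout or strand setting. Because 1 fixed length is used per gene, a loss of reads that depends on length would show as a difference in FPKM. The values are whole multiples of a step set by gene length, which gave whole reads for 16278 of 16278 genes above 0 (within 0.02 reads) and library totals of 18039929 to 20335307. The shortest length that fits was taken, so a gene whose reads share a factor across libraries would be given too few. Recovered reads served for depth, counting intervals and 1 alternative; intervals cover counting error only.

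Log2(FPKM + 1) values of the 11131 genes averaging 1 FPKM or more in OE-NC or OE-SOX3 were fitted with limma-trend (limma 3.58.1, R 4.3.3; Python 3.11.15), without covariates, with Benjamini-Hochberg adjustment over all of them and a threshold of 0.05. The procedure was also run on simulated reads drawn from the OE-NC means, with few changed genes. That setting lacks the many changed genes and the outlying library of these data, so it cannot vouch for the calls here. Replicate numbers did not enter this fit, so its SEs, p-values and calls ignore any pairing, and a block by number was an alternative. Same-numbered libraries deviated together (correlations 0.486, 0.243 and 0.25). Only those of replicate 1 were each other's sole positive match (OE-NC replicate 3 with OE-SOX3 replicate 2 had 0.282, OE-NC replicate 2 with OE-SOX3 replicate 3 had 0.227). No replicate pair within a group was as alike as counting error alone allows (chi-square over degrees of freedom 1.76 to 61.5), so all 6 were kept as separate libraries. Alternatives changed the pseudocount, filter, scaling, length trend, block, test and each library in turn. The members and gene lists were chosen with earlier results of these data known. The text names all members, SOX3, the tested other family genes, the 4 called anchoring and lamina genes with the largest change, the 4 most abundant markers per list and the 3 closest profiles to KRT18 and NEFM. Positions and exon overlaps come from GENCODE (GRCh38).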

Additional observations from a re-analysis of the deposited data

How the results depend on the processing

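The count of changed genes, 7686 of 11131, ranged from 6557 to 9076 when each library was left out in turn, the highest without OE-NC replicate 1, and was 8031 with the replicate number as a block, which changed no call of a gene chosen by the naming rule but raised the changed anchoring genes from 11 to 14 of 16. Scaling every library to the same sum of FPKM moved the median log2 fold change of all genes from -0.03 to 0.12 and raised the percentage of called genes that were higher from 47.7% to 59.2%, a shift against which small differences have to be read. Under quantile normalization 0 members were higher, since VIM did not pass. With no filter, 14 of 40 other intermediate filament genes rose, beside 4636 of 16278 genes. Lamina genes that rose numbered 4 to 7 of 25 when a library was left out, beside 3154 to 4274 of all tested genes. Every member past the threshold kept its direction in every alternative. The sign turned for 5 genes that had not passed. SYNM had a log2 fold change of 0.13 with equal sums and was at -0.0131 to 0.0136 with a library left out. UCHL1 was at -0.0423 to 0.237 with a library left out, the highest and a pass without OE-NC replicate 1, and passed at 0.33 with the length trend removed. ENO2 was at -0.0245 to 0.0626 and passed at 0.20 under quantile normalization. TUBB3 was at 0.0118 with equal sums, 0.115 under quantile normalization and 0.0727 with the length trend removed. NR5A1 was at 0.111, 0.0997 and 0.0823 in the same 3 alternatives and at -0.0757 to 0.0385 with a library left out. The cause of these shifts was not tested. Depth limits NES and KRT19, with 4 to 16 and 8 to 12 reads per library.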
